A study of Homo sapiens with 4 samples.

Results

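ELF5 peaks around FOXA1, GATA3 and TRPS1, 3 transcription factor genes of luminal breast epithelium, were described in T47D cells, an established human luminal A breast cancer line grown in serum and insulin. ELF5, an ETS-family factor of alveolar and luminal progenitor cells, had been immunoprecipitated from 3 replicate samples, with 1 input sample beside them. The authors' list of ELF5 peaks on hg19 was analysed, and which replicates it rests on is not stated. Peaks were taken as members when their summit lay in a window set around each gene by position alone, on chromosome 14 from 37960001 to 38170000 for FOXA1, on chromosome 10 from 7950001 to 8300000 for GATA3 and on chromosome 8 from 116380001 to 116900000 for TRPS1. This gave 88 of the 115384 peaks in the list, 17 at FOXA1, 48 at GATA3 and 23 at TRPS1. All 4 samples were untreated cells of this line, per the labels. Values came per peak and not per sample, so no replicate error accompanies them and no difference was tested.

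FOXA1 is a forkhead pioneer factor that opens chromatin for the estrogen receptor. GATA3 is a zinc finger factor needed to form and keep the luminal lineage, and it works with the estrogen receptor and FOXA1 at shared enhancers. TRPS1 is an atypical GATA-type zinc finger protein that mainly represses transcription and is widely used as a marker of breast epithelium. ETS factors recognise DNA around the core letters GGAA. In luminal breast cancer lines, raised ELF5 is known to lower estrogen sensitivity, and these 3 genes belong to the network around the estrogen receptor.

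RefSeq promoter windows were matched by symbol for FOXA1, with 1 start, and for GATA3, with 6 starts. For TRPS1 0 starts were matched, so no promoter sequence is given for it. The FOXA1 start and the main GATA3 start are shown because each gene's strongest ELF5 peak lay within 1 kb of the start, taken to the nearest kb, and the outermost GATA3 start because it was the only one of the 6 with CGGAAG, an ETS core with its flanks. The 250 bases before the FOXA1 start are on GRCh38.p14 at chr14:37595250-37595499, minus strand. Those before the GATA3 start whose distance to the gene's end, 20.5 kb, is nearest to the 20 kb gene of the window definition, the main start, are at chr10:8054438-8054687, plus strand. The outermost GATA3 start lies 9.4 kb upstream of the main one, and its 250 bases are at chr10:8045083-8045332, plus strand. These coordinates belong to another build than the peaks and were not converted. Capitals mark GGAA or TTCC, its reverse complement.
FOXA1: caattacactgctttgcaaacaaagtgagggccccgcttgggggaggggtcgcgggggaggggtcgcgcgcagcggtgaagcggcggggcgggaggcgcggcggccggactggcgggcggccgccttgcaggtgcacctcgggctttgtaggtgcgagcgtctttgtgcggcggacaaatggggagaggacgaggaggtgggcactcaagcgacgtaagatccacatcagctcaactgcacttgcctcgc
GATA3 main start: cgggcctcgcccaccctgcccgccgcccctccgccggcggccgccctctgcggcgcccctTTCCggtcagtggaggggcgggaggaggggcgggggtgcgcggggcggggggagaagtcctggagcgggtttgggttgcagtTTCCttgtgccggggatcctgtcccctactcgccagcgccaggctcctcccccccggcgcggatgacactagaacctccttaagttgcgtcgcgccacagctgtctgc
GATA3 outermost start: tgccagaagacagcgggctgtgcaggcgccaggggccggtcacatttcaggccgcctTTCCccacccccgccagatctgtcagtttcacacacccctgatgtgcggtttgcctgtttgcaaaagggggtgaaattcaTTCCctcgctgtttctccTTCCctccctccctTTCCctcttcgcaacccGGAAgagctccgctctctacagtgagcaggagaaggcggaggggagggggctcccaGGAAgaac

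The 3 promoters shown, 1 of FOXA1 and 2 of GATA3, held different counts of ETS-type letters. Part of this follows from the choice, because the outermost GATA3 start was shown for its CGGAAG. Searching both strands, the FOXA1 window held 0 matches to GGAA in the 250 bases before the start and 1 when the 50 bases past the start were added. The outermost GATA3 start had 6 matches before it and each of the other 5 GATA3 starts, the main one included, had 2. The longer CGGAAG, whose matches are a subset of the GGAA matches, occurred at the outermost GATA3 start, 1 time, and at none of the other 5 nor at FOXA1. Among 35116 promoter windows of the same table, 92.7% held GGAA, with a median of 3 matches, and 16.5% held CGGAAG in those 250 bases. A match is a string of letters in a short window, and the peaks described below reached well beyond it.

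At all 3 genes the strongest peak of the window sat at the gene start. At FOXA1 the peak whose summit lay 0.7 kb upstream of the start had the authors' fold enrichment over local background of 33.7 (95% Poisson counting interval 29.3 to 38.6). At GATA3 the peak 0.5 kb upstream also had a fold of 33.7 (29.3 to 38.6). At TRPS1 the peak 0.5 kb upstream had a fold of 17.1 (13.9 to 20.9), whose interval did not overlap those of the other two. The intervals cover counting error of the fragment pileup only, with the background held fixed. In the list of 115384 peaks ranked by fold, these peaks stood at 1041 for FOXA1, 1040 for GATA3 and 6780 for TRPS1, that is within the highest 0.902%, 0.901% and 5.88%. Gene starts were known to the nearest kb, so distances are uncertain by 0.5 kb.

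**Figure D1:**
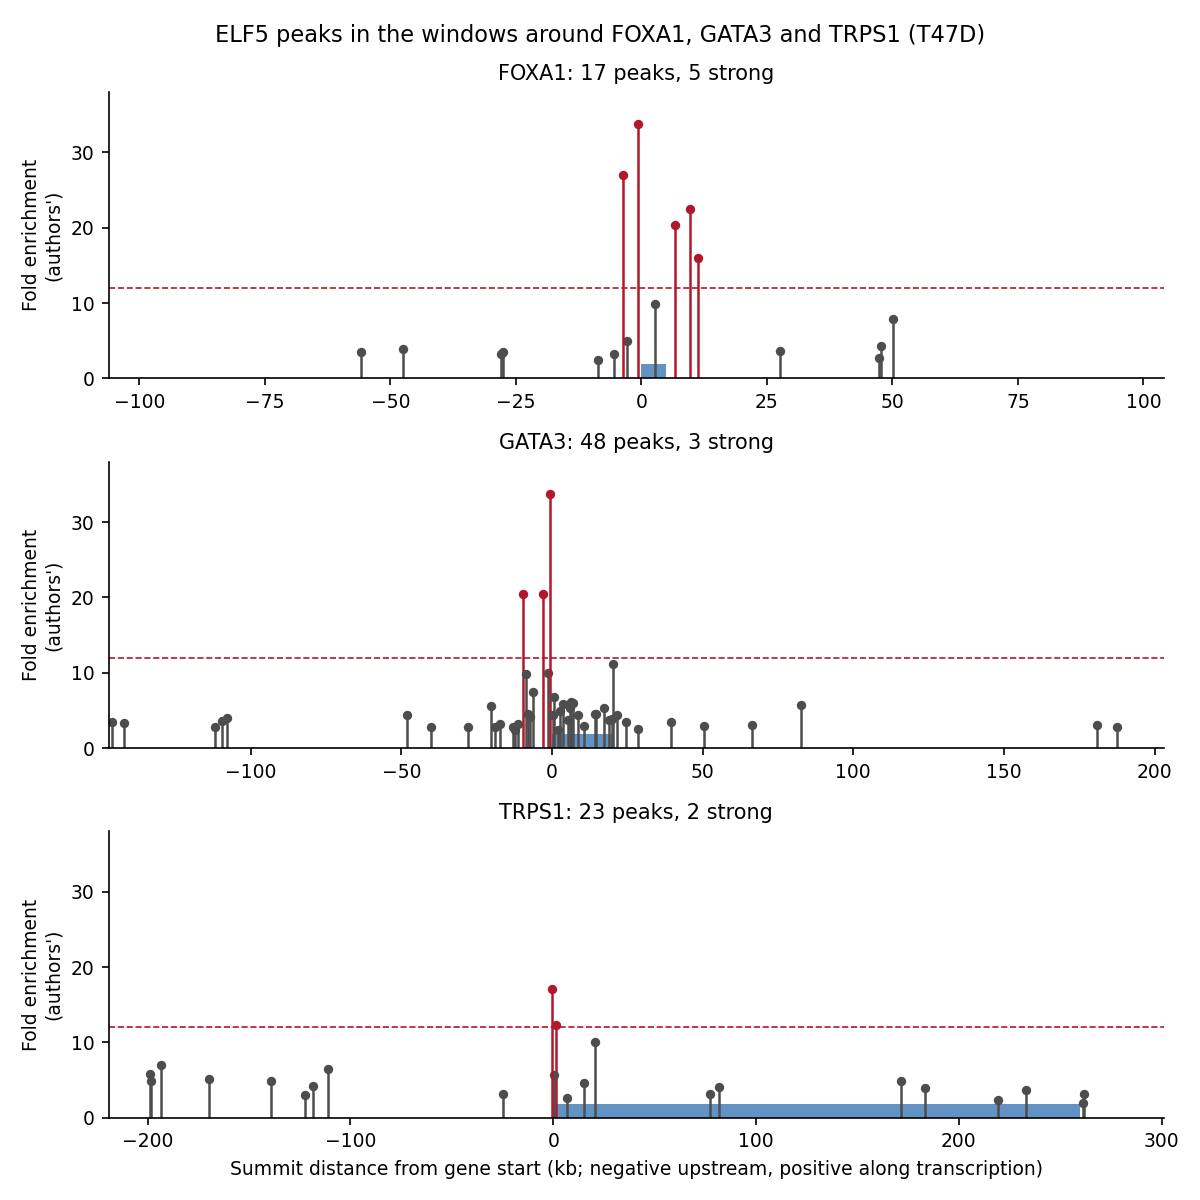
Fold enrichment of each ELF5 peak (vertical axis, the authors' value) against the distance of its summit from the gene start in kb (horizontal axis, negative upstream and positive along transcription), in a panel per gene with its own horizontal scale. Red stems are strong peaks, grey stems the others, the blue bar is the gene and the dashed line the fold of 11.99 at which strong peaks begin; the highest stem of each panel stands within 1 kb of the gene start.

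Strong peaks, defined here as the strongest 10% of the list by fold with ties kept, begin at a fold of 11.99 and make up 10.0% of all peaks. Of the 88 members 10 were strong, 11.4%, a share near that of the list. The share was 29.4% at FOXA1 (5 of 17, exact binomial 95% interval 10.3 to 56.0%), 6.25% at GATA3 (3 of 48, 1.31 to 17.2%) and 8.7% at TRPS1 (2 of 23, 1.07 to 28.0%). These intervals treat peaks as independent and overlap each other. The windows differ in length, which affects these shares. Within 10 kb of the start, strong peaks were 4 of 8 at FOXA1, 3 of 18 at GATA3 and 2 of 4 at TRPS1. Of the 10 strong peaks 9 lay within 10 kb of a gene start, where 30 of the 88 members lay, and 1 lay among the other 58. Median fold was 4.26 at FOXA1, 4.03 at GATA3 and 4.57 at TRPS1, and 3.66 over the whole list. A q under 0.05 was met by 84 members, 95.5%, and by 87.5% of the list.

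FOXA1 is a short gene, spanning 38059 to 38064 kb on the minus strand, and most of the signal lay outside it on both sides. The strongest peak covered chromosome 14 from 38063474 to 38065740, a width of 2267 bp that spanned the start even with its rounding. Its pileup was 206 fragments over a background of 4.59. A second upstream peak, 3.7 kb from the start at 38067261 to 38069238, had a fold of 27.0 (22.8 to 31.6) with a pileup of 149. Both are wide peaks, and at 1978 bp the second one fell just short of 2000 bp. These 2 were the only strong peaks upstream of FOXA1, where the 7 others had folds of 4.90 or less.

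Past the 3′ end of FOXA1 stood 3 more strong peaks in a row. The peak 6.6 kb from the start, at 38056991 to 38057922, had a fold of 20.4 (16.7 to 24.6). The next, 9.6 kb from the start at 38053555 to 38054790, had a fold of 22.5 (18.7 to 27.0). The last, 11.2 kb from the start at 38052450 to 38053383, had a fold of 16.0 (13.0 to 19.4). All 3 intervals lay below that of the peak at the start. The 1 peak inside FOXA1, 2.8 kb from the start at 38060546 to 38062367, was 1822 bp wide with a fold of 9.81 (7.36 to 12.8), and its interval reached past the threshold for strong peaks.

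The strong peaks of FOXA1 belonged to a compact group. Joining peaks with at most 12.5 kb between them gave a stretch of 20.2 kb, from 38052450 to 38072645, with 9 of the 17 peaks and all 5 strong ones, whose summits spanned 14.9 kb. Beyond 50 kb from the start the window held 2 peaks, with folds of 7.94 on the downstream side and 3.5 on the upstream side. The nearest protein-coding neighbours in RefSeq are MIPOL1 and TTC6, and which members lie in them was not analysed here.

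GATA3, spanning 8097 to 8117 kb on the plus strand, had the most peaks and the longest group. The strongest peak covered chromosome 10 from 8096174 to 8096919, where 205 fragments stood over a background of 4.56. The other 2 strong peaks were also upstream, and each had 134 fragments over a background of 5.00, so both came to a fold of 20.5 (17.2 to 24.2). One lay 9.7 kb upstream at 8086992 to 8087607 and was 616 bp wide. The other, 3.1 kb upstream at 8091136 to 8094570, was 3435 bp wide, the widest of all members, although its summit was no higher. Their summits were 6.61 kb apart.

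Between and beside these GATA3 peaks the upstream side carried peaks of middle height. The peak 1.3 kb upstream had a fold of 9.94 (7.63 to 12.8), the one 8.7 kb upstream 9.86 (7.53 to 12.7) and the one 6.3 kb upstream 7.5 (5.46 to 10.1). In all, 22 GATA3 peaks lay upstream with a median fold of 3.81. RefSeq places 4 GATA3 starts upstream of the main one and begins GATA3-AS1, an antisense long noncoding RNA, on that side. They lie 9.4, 4.8, 3.5 and 1.0 kb before the main one on the other build. Placing them by these distances assumes the same spacing on hg19 and the main start at 8097 kb. The starts 4.8 and 3.5 kb upstream then fall within the strong peak of 3435 bp, even with the rounding of the start. The outermost start falls at the strong peak with its summit 9.7 kb upstream, and the nearest one by the peak 1.3 kb upstream. For these last starts the rounding leaves open whether the peak covers the start.

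Inside GATA3, bounded by the 20 kb of the window definition, peaks were dense but none was strong. RefSeq also has GATA3 starts up to 9.4 kb upstream of the main one. A gene counted from the outermost start would take in the strong peaks 3.1 and 0.5 kb upstream. The 20 kb held 15 peaks, a density of 750.0 per Mb, with folds from 2.36 to 6.72 and a median of 4.59. The highest of them lay 0.7 kb past the start, with a fold of 6.72 (4.85 to 9.09), and the peak with its summit nearest to the start, 0.2 kb past it, had 4.42 (2.95 to 6.40). With the start known to the nearest kb, it cannot be said whether that small peak or the strong one 0.5 kb upstream lies closer to it. Just past the 3′ end, 20.4 kb from the start at 8117264 to 8117626, a peak of 363 bp had a fold of 11.2 (8.31 to 14.7), below the threshold with an interval that spanned it. It was the strongest of the 11 downstream peaks, whose median was 3.48. Local backgrounds under the 15 peaks in GATA3 ran from 3.64 to 11.0 fragments with a median of 5.0, against a median of 3.11 in the list. The 3 strong peaks upstream stood over similar backgrounds, 4.56 and 5.0, with pileups of 134 to 205, while no peak in the gene had a pileup over 50.

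Joined at up to 12.5 kb, 39 of the 48 GATA3 peaks formed a stretch of 98.9 kb from 8048695 to 8147606, with all 3 strong ones. Neighbouring summits lay a median of 1622 bp apart at GATA3, 3066 bp at FOXA1 and 10115 bp at TRPS1. On either side the GATA3 window had long stretches without a peak, 59.6 kb on the upstream side and 98.1 kb on the downstream side.

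**Figure D2:**
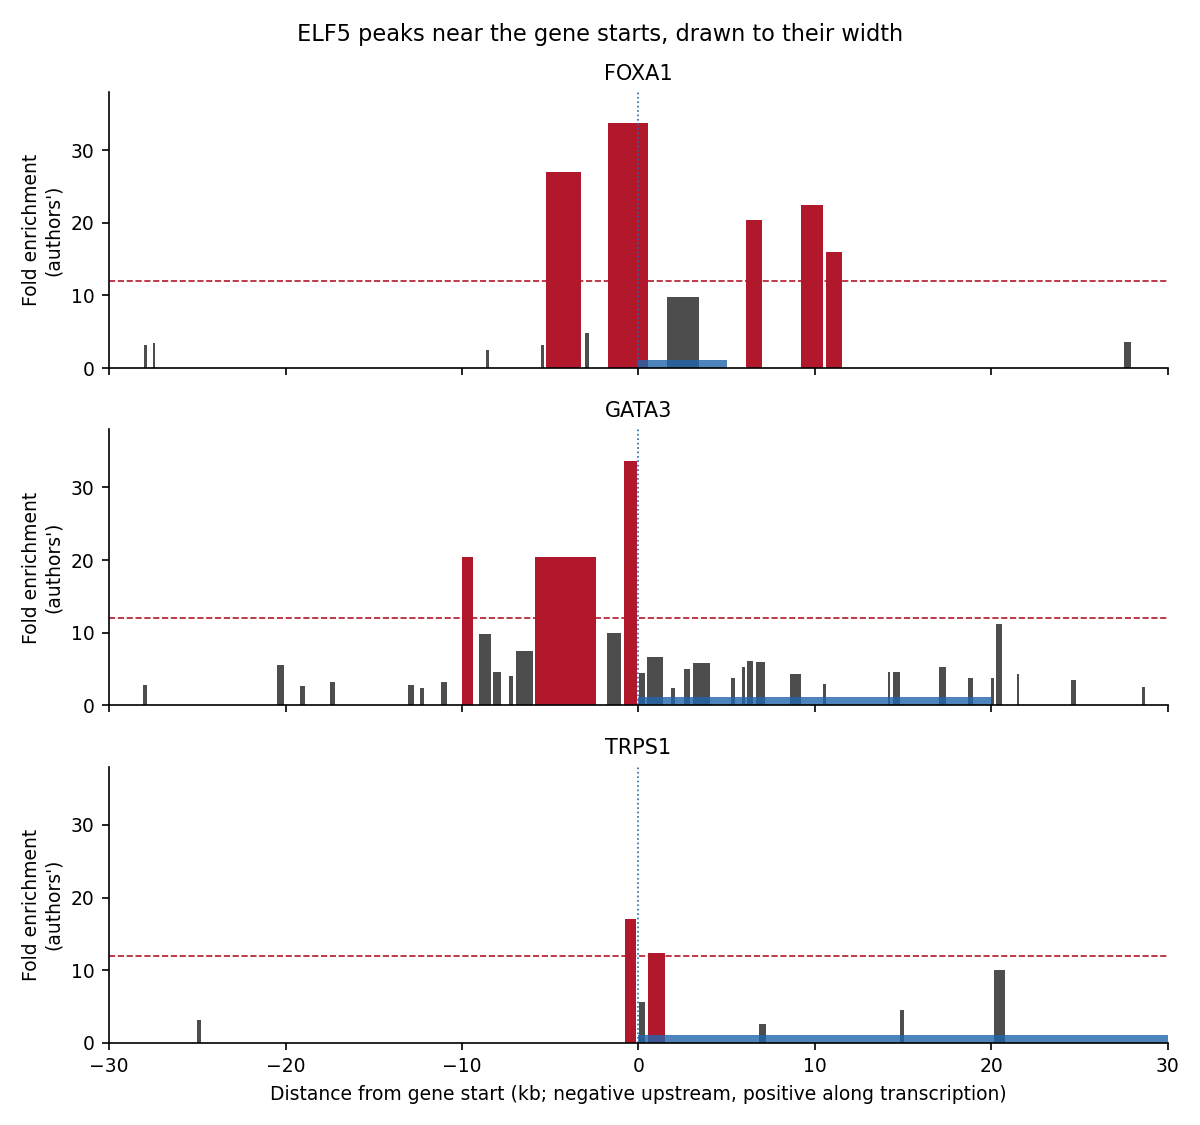
Peaks within 30 kb of each gene start, as bars as wide as the peak and as high as its fold enrichment at the summit (vertical axis, the authors' value), against distance from the start in kb (horizontal axis). Strong peaks are red, others grey and the gene blue, and the dashed line is the fold of 11.99; FOXA1 has strong peaks on both sides of the gene, GATA3 on its upstream side and TRPS1 at its start.

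TRPS1 is a long gene, spanning 116421 to 116681 kb on the minus strand. Its strong peaks, as defined by fold, were confined in this list to the start. The strongest peak, 620 bp wide on chromosome 8 from 116681148 to 116681767, had 93 fragments over a background of 4.0. The second strong peak, 1.2 kb into the gene at 116679481 to 116680478, was the widest of the window at 998 bp and had a fold of 12.3 (9.39 to 15.8). It stood just above the threshold of 11.99, with an interval that spanned it. Between them, 0.2 kb past the start, another peak had a fold of 5.63 (3.99 to 7.73). Only 4 of the 23 TRPS1 peaks were within 10 kb of the start, against 8 of 17 at FOXA1 and 18 of 48 at GATA3. The windows are 520, 210 and 350 kb long in that order, so these shares are not comparable between genes.

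Along the 260 kb of TRPS1 the other peaks were few. The highest of them, 20.6 kb into the gene at 116660224 to 116660842, had a pileup of 76, a fold of 10.0 (7.93 to 12.5) and an interval that just spanned the threshold. Its background was 6, against 3.37 at the strong peak 1.2 kb into the gene. Ranked by p it stood at 10312, ahead of that peak at 11446. The strongest 10% by p held 3 TRPS1 peaks, so the confinement of strong peaks to the start depends on ranking by fold. Farther than 50 kb into the gene there were 6 peaks with folds up to 4.92. The gene's 11 peaks came to 42.3 per Mb, near the 38 per Mb of chromosomes 1 to 22 and X. Within TRPS1, a stretch of 89.7 kb had no peak summit. The 2 peaks past the 3′ end had folds of 3.21 and 1.96.

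The upstream side of TRPS1 held a distant set of modest peaks. Of 10 upstream peaks 8 lay over 100 kb from the start, with folds from 3.05 to 7.03. The highest of these were 193.6 kb upstream, with a fold of 7.03 (5.30 to 9.16) and a pileup of 53, and 110.9 kb upstream, with a fold of 6.49 (4.94 to 8.40) and a pileup of 56. GATA3 had 5 peaks over 100 kb upstream with folds from 2.83 to 3.97, and FOXA1 had 0. The windows reach 219 kb upstream of TRPS1, 147 kb of GATA3 and 106 kb of FOXA1, so these counts describe each window and are not comparable between genes. Which gene, if any, these distant peaks act on was not analysed here.

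**Figure D3:**
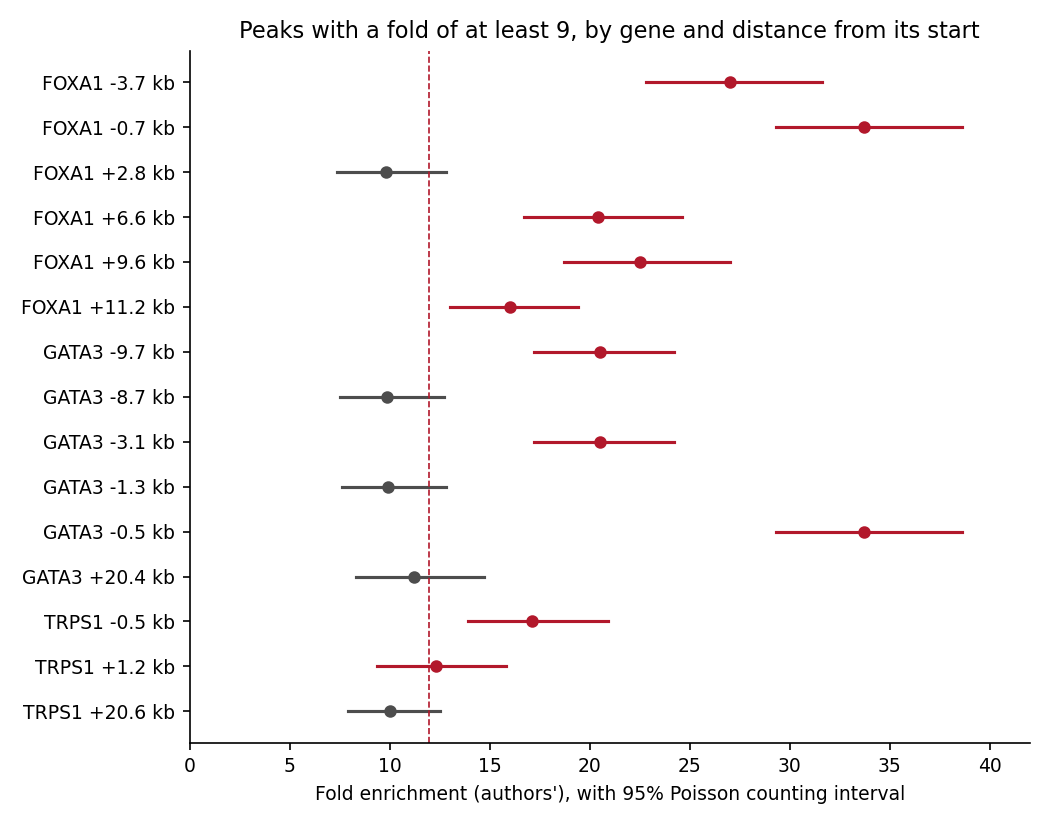
Fold enrichment (horizontal axis, the authors' value) of the 15 members with a fold of at least 9, with exact Poisson 95% counting intervals as lines, in a row per peak named by gene and distance from its start in kb. Red marks strong peaks, grey the others and the dashed line the fold of 11.99; of 10 strong peaks 9 have intervals above that line and 1 spans it, and 5 of the others span it.

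All 3 genes lie in dark Giemsa bands, which are textbook gene-poor chromatin, and their windows were denser in peaks than the bands around them. The FOXA1 window held 81.0 peaks per Mb and the rest of 14q21.1 held 12.8, a ratio of 6.32. The GATA3 window held 137 per Mb and the rest of 10p14 held 35.4, a ratio of 3.87. The TRPS1 window held 44.2 per Mb and the rest of 8q23.3 held 13.0, a ratio of 3.40. A gene was the reason for placing each window, and rest-of-band stretches without genes are part of the comparison, so the ratios describe these windows and were not tested.

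The strong peaks of these bands were divided differently at the 3 genes. The FOXA1 window had 5 of the 9 strong peaks of 14q21.1 and 17 of its 87 peaks. In the rest of that band 4 of 70 peaks were strong, 5.71%. The TRPS1 window had both of the 2 strong peaks of 8q23.3 and 23 of its 89 peaks. The GATA3 window had 3 of the 14 strong peaks of 10p14 and 48 of its 234 peaks. Its share of strong peaks, 6.25%, was close to the 5.91% in the rest of the band. The rest of 8q23.3 held 66 peaks, of which 0 were strong.

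Against the whole genome the density was less unusual. Over consecutive stretches of 210 kb along chromosomes 1 to 22 and X, 14.2% had at least the 17 peaks of the FOXA1 window and 3.18% had at least its 5 strong peaks. For GATA3, 6.73% of stretches of 350 kb had at least 48 peaks and 18.1% at least 3 strong ones. For TRPS1, 25.1% of stretches of 520 kb had at least 23 peaks and 38.9% at least 2 strong ones. FOXA1 therefore stood higher by strong peaks than by all peaks, and GATA3 higher by all peaks than by strong ones. Windows were placed around known genes and the stretches were not, which favours the windows.

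**Figure D4:**
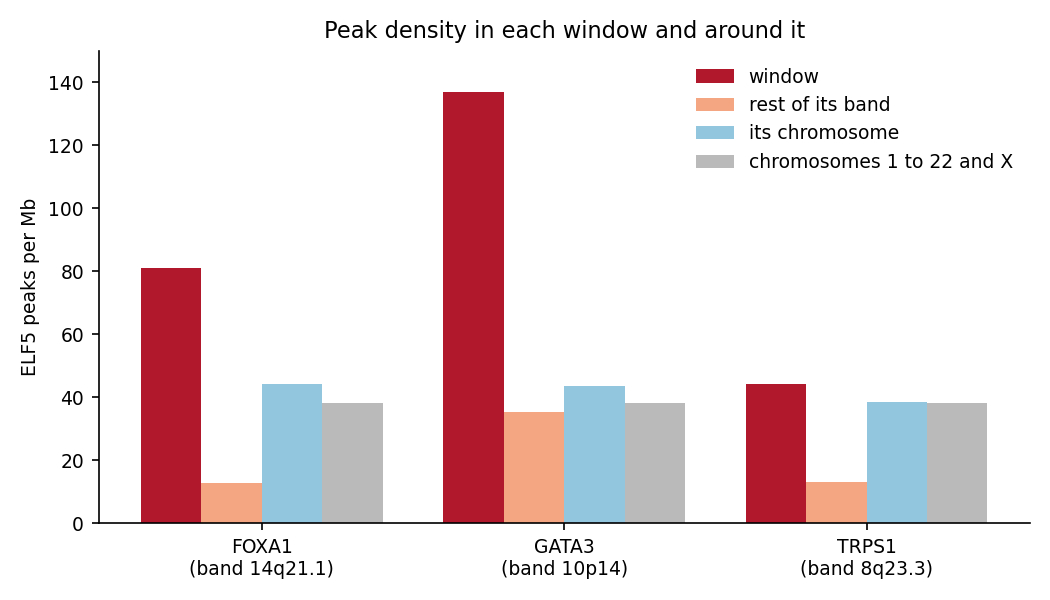
ELF5 peaks per Mb (vertical axis) in each gene's window, in the rest of its Giemsa band, on its whole chromosome and on chromosomes 1 to 22 and X together (bars from left to right for each gene). The window bars stand at 81.0, 137 and 44.2 per Mb, above the rest of their bands at 12.8, 35.4 and 13.0; at TRPS1 the window is close to its chromosome, at 38.6.

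Members rested on more fragments than the list as a whole. The median pileup was 27 at FOXA1, 26 at GATA3 and 20 at TRPS1, and 16 over the whole list. The local background was higher too, with medians of 3.83 at FOXA1, 4.57 at GATA3 and 4.59 at TRPS1, against 2.92, 3.51 and 3.0 over the peaks in the rest of their bands and 3.11 in the list. The part of local background in the number of peaks was not tested. Of the members 24 had a pileup of 16 or less, and their folds carry the widest counting intervals for their size.

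Strong members were wide peaks. Their median width was 966 bp, with a range from 616 to 3435 bp, and the other 78 members had a median of 226 bp and a range from 135 to 1822 bp. Over the whole list strong peaks had a median width of 818 bp. A width of at least 2000 bp was reached by 2 members, the peak at the FOXA1 start and the one 3.1 kb upstream of GATA3, and by 0.448% of the list. At the other extreme 3 members had the smallest width in the list, 135 bp, all of them at GATA3. The share of the list at that width was not computed, so this count has no base to be read against. Peaks covered 5.58% of the FOXA1 window, 5.56% of the GATA3 window and 1.43% of the TRPS1 window.

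The edges of the windows cut through no group of strong peaks. The nearest peaks outside had folds of 4.56 and 2.98 at FOXA1, 5.30 and 4.56 at GATA3 and 3.48 and 3.41 at TRPS1. The outermost peaks inside had folds of 7.94 and 3.5 at FOXA1, 3.45 and 2.74 at GATA3 and 3.21 and 5.77 at TRPS1.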

How the data were processed

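ELF5 ChIP-seq had been done in T47D in 3 replicates with 1 input sample. Protein and DNA complexes came from sonicated nuclei and were sequenced after size selection, per the labels' protocols, whose antibody list is for other factors and other lines. The labels do not say whether replicates were separate cultures. The peaks are on hg19, per the file headers, whose track name mentions IDR and 1-3. Whether that means replicates 1 to 3 or replicates 1 and 3 is not stated. The largest q in the list was 0.583. The sources used here do not give the aligner, caller, threshold, use of the input or pooling, and total reads are unknown.

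Each row holds the authors' score, fold (a ratio of ChIP to background, so read from its values), −log10 p and −log10 q, all the authors' own. The deposited score equals the whole part of 10 times −log10 p in all 115384 rows. Pileups and backgrounds were recovered from the deposited fold and p with a factor of 0.910, a pseudocount of 1 and a Poisson tail, within 0.001 of −log10 p for all 115384 peaks. For 95 peaks a second pileup also matched. On 4786 simulated peaks, 100% of pileups were recovered. Windows and gene edges were given in kb on hg19. Bands came from circlize 0.4.16 in R 4.3.3. Other steps ran in Python 3.11.15 with matplotlib 3.10.9, pandas 2.3.3, scipy 1.17.1 and numpy 2.4.6.

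Members, windows, thresholds and motifs were chosen with earlier results of these data known. By rule, peaks named were strong ones, the highest upstream, in and past each gene, the widest and the one nearest the start; further peaks were named after their values were seen. Other luminal genes were not analysed here, for want of hg19 annotation.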

Additional observations from a re-analysis of the deposited data

How the results depend on the processing

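Of 57 alternative values 45 stayed within 1.5 times a count, the 95% interval of a median or the counting interval of a fold, and 12 moved. In the 50% of peaks with the highest folds, FOXA1 had 11 peaks and GATA3 29, with a GATA3 median fold of 5.29, by construction. There the FOXA1 median fold rose from 4.26 to 9.81. It counts among the 45 only because that lay within its 95% interval. Joining peaks under 1000 bp apart left 26 at GATA3, and 1 strong region each at GATA3 and TRPS1. The strongest 5% gave 0 strong peaks at TRPS1, the strongest 20% gave 8 at GATA3 and 4 at TRPS1, and ranking among peaks with q under 0.05 gave 1 at TRPS1. FOXA1 held 2 peaks in its body, not 1, by any overlap or with edges moved out by 1 kb. Ranking by pileup and moving edges in by 0.5 kb were chosen after seeing the data and moved no count by over 1.5 times. Ranking by pileup gave 4 strong peaks at GATA3 and 2 at TRPS1. Those 2 include the peak 20.6 kb into TRPS1, with a pileup of 76, and not the one 1.2 kb into it, with 58. Moving edges in left 14 peaks in GATA3 and 10 in TRPS1. The highest fold of each window was run only with q under 0.05 and with the highest 50% of folds. It stayed the same by construction, because neither filter could remove these peaks, and these values count among the 45. No paired analysis was possible because values per sample were not analysed here, and leaving out replicates was not run for the same reason. Low pileups limit the ranking of weak members.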
